A study of Mus musculus with 8 samples.

Results

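Genes of secretion and digestion were followed through the series: Sct (secretin), Adcyap1r1 (the receptor of PACAP) and Ctrb1 (chymotrypsinogen B). They are 3 of the 5457 genes in the table analysed here, and they were picked by name because their mean CPM (reads scaled to the library size) differed widely between the cultures labelled 48 and those labelled GM. Sct and Adcyap1r1 stood at 104 to 224 CPM in every GM library and at 5.64 CPM or less in every 48 library. Ctrb1 ran the other way, at 109 to 228 CPM in every 48 library and under 1 CPM in every GM library. Between the lineages, Adcyap1r1 was lower in Tw2 than in Pax7 cells in both cultures, in a table where 74.7% of genes were called between the lineages in GM and 65.4% at 48. Ctrb1 was higher in Tw2 cells at 48 with library totals, a call that was lost with size factors.

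Adult C57BL/6 mice gave the hind limb muscle from which tdTomato-positive (tdTO+) cells were sorted and plated on Matrigel. The study compared cells labelled through Twist2 (Tw2), a transcription factor gene, with cells labelled through Pax7, the gene that marks satellite cells, the stem cells of muscle. The Tw2 mice were Tw2-CreERT2/+;R26-tdTO+ and the Pax7 mice Pax7-CreERT2/+;R26-tdTO+, so every group carried a tamoxifen-inducible Cre recombinase at 1 of these genes and the tdTomato reporter, and every mouse had 3 tamoxifen treatments on alternate days, 10 days before harvest. There were 4 groups of 2 libraries each: Tw2_48, Tw2_GM, Pax7_48 and Pax7_GM. The titles do not spell out GM, but the series is described as a culture in growth medium, which per the labels was Ham's F10 with 20% FBS. Myoblasts were differentiated in a medium with 2% horse serum and bFGF; the labels do not say in which medium the 48 cultures were kept, and the unit hr stands beside the 48 in the Tw2 titles but in none of the Pax7 titles. Neither the number of mice behind a library, nor pooling, nor sex is given, so p-values here reflect only how far these libraries lie apart. The reporter marks whatever cells had the Cre active, and those cells may be of more than one kind.

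The deposited values are group means, and each mean was split into whole reads of its 2 libraries, called the deeper and the shallower one. The sizes so implied were 13.7 and 9.40 M reads for Tw2_48, 12.2 and 11.3 M in Tw2_GM, 10.6 and 7.64 M in Pax7_48, and 7.38 and 5.18 M in Pax7_GM. The 2 Pax7_GM libraries stood further apart than the others: over all genes their log2 ratio had an SD of 0.498, against 0.169 to 0.196 in the other groups. A count of 0 allows up to 3 reads, which is 0.218 to 0.579 CPM depending on the library; such limits cover counting error only. Pax7 was at 13.0 and 12.6 CPM in Tw2_48, 113 and 109 CPM in Tw2_GM, 9.58 and 9.95 CPM in Pax7_48, and 117 and 112 CPM in Pax7_GM. In GM the lineages did not differ by the test (limma adjusted p = 0.738). At 48 Pax7 was called higher in Tw2 cells with library totals, by 0.35 on the log2 scale (limma adjusted p = 0.0303), as were 43.3% of all genes. These values therefore check no label, and Twist2 is not among the genes analysed here.

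Secretin is a peptide hormone, made by S cells of the duodenum, that prompts the pancreas to release bicarbonate. PACAP is a neuropeptide of the same peptide superfamily, and its receptor Adcyap1r1 (PAC1) belongs to class B of the G protein-coupled receptors, which act mainly through Gs, adenylyl cyclase and cyclic AMP, and in the case of PAC1 also through Gq and phospholipase C. Chymotrypsinogen B is the inactive precursor of a serine protease that acinar cells of the pancreas secrete into the gut. None of these genes is a customary marker of muscle or of its stem cells.

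The genes lie apart in the mouse genome (GRCm38, GENCODE M21). Sct spans chr7:141278330-141279133 on the minus strand, a short gene with at most 4 exons and a longest transcript of 617 bases. Adcyap1r1 spans chr6:55451978-55501451 on the plus strand, with up to 17 exons and a longest transcript of 6107 bases. Ctrb1 spans chr8:111686519-111691010 on the minus strand, with 7 exons in 878 bases. The microRNA gene Mir7076 lies within Ctrb1 on the same strand and is the only annotated gene that overlaps any of these genes.

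Since Sct and Adcyap1r1 stood high in the same cultures and Ctrb1 in the opposite ones, the 250 bases before each RefSeq start (GRCm38.p6) are shown to let their promoters be compared. Windows are given 5′ to 3′ on the strand of the gene: chr7:141279134-141279383 (minus strand) for Sct, chr6:55451728-55451977 (plus strand) for Adcyap1r1 and chr8:111691011-111691260 (minus strand) for Ctrb1. Capitals mark E-boxes (CANNTG, the site of basic helix-loop-helix factors such as the Twist and MyoD families), the TATA box (TATAAA), the GC box (GGGCGG) and the CCAAT box on either strand, and TTTCCC where it follows an E-box by 4 bases.
Sct: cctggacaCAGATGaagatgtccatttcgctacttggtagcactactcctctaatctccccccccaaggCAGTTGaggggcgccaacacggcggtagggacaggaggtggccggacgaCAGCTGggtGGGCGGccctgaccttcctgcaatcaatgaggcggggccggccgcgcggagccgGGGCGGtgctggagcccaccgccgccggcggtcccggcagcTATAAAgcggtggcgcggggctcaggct
Adcyap1r1: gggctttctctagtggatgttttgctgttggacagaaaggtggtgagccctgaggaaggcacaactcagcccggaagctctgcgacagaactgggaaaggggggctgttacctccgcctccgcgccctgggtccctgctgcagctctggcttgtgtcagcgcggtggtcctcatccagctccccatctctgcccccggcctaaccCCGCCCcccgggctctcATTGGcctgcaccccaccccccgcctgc
Ctrb1: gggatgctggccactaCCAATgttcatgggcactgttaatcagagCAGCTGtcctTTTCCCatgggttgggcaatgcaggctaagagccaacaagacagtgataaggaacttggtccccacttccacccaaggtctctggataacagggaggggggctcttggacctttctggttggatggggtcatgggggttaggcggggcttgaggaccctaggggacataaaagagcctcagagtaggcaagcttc

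The Sct window held 3 E-boxes, namely CAGATG at 242 bases before the start, CAGTTG at 181 bases and CAGCTG at 132 bases, a TATAAA at 28 bases, and GGGCGG at 123 and 69 bases. The Adcyap1r1 window held neither an E-box nor a TATA box. On the opposite strand it held a GC box, which reads CCGCCC here, at 45 bases, and a CCAAT box, which reads ATTGG here, at 28 bases. The Ctrb1 window held 1 E-box, CAGCTG, at 205 bases, and a CCAAT at 234 bases. Counting both strands of 32851 mouse promoter windows of this length, 66.2% held an E-box, 13.0% CAGCTG (itself an E-box), 12.4% TATAAA, 32.7% GGGCGG and 33.8% CCAAT. The cyclic AMP response element core TGACG, found in 17.8% of windows, and its full form TGACGTCA, in 1.55%, were in none of these windows. GC content was 68% for Sct, 65.6% for Adcyap1r1 and 54.8% for Ctrb1, against a median of 52.4% over all windows.

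In rat, the acinar factor PTF1 binds a compound element of an E-box followed by TTTCCC in promoters of pancreatic enzyme genes. An E-box, any 4 bases and then TTTCCC, searched on both strands after the Ctrb1 window had been seen, matched there as CAGCTGTCCTTTTCCC, at 205 bases before the start. That spacing was found in 26 of the 32851 windows (0.0791%), which belong to 25 genes. Of these, 3 are among the 38 pancreatic and digestive enzyme genes with a window: Ctrb1, Cela1 (elastase) and Prss1 (trypsinogen). Only Ctrb1 of the 25 genes is in the deposited table. A match describes the letters and is not evidence of binding.

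Sct reads numbered 43 and 53 in the deeper and shallower Tw2_48 libraries, 1552 and 1679 in Tw2_GM, 23 and 12 in Pax7_48, and 1574 and 767 in Pax7_GM. In CPM these were 3.13 and 5.64 CPM in Tw2_48, 127 and 149 CPM in Tw2_GM, 2.16 and 1.57 CPM in Pax7_48, and 213 and 148 CPM in Pax7_GM. All 4 GM libraries were above all 4 48 libraries, and among the GM libraries the 2 lineages overlapped. The 48 libraries of the 2 lineages did not overlap, as was so for 89.6% of all genes at 48, Tw2 being the higher, and all of them were above the limit of a count of 0.

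Adcyap1r1 was read 4 and 6 times in Tw2_48, 1266 and 1532 times in Tw2_GM, 35 and 23 times in Pax7_48, and 1650 and 1157 times in Pax7_GM. This gave 0.291 and 0.639 CPM in Tw2_48, 104 and 136 CPM in Tw2_GM, 3.29 and 3.01 CPM in Pax7_48, and 224 and 223 CPM in Pax7_GM. Here the lineages did not overlap in either culture (nor did they for 87.8% of all genes in GM), and Pax7 was the higher in both. The Tw2_48 libraries lay just above their limits for a count of 0, which were 0.218 and 0.319 CPM.

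Ctrb1 had 2935 and 2139 reads in Tw2_48, 3 and 6 in Tw2_GM, 1157 and 850 in Pax7_48, and 5 and 5 in Pax7_GM. The levels were 214 and 228 CPM in Tw2_48, 0.246 and 0.531 CPM in Tw2_GM, 109 and 111 CPM in Pax7_48, and 0.677 and 0.965 CPM in Pax7_GM. Every 48 library exceeded every GM library, and at 48 both Tw2 libraries exceeded both Pax7 libraries. In GM the gene was near the limit of a count of 0 in both lineages. The deeper Tw2_GM library held only the 3 reads that a count of 0 allows, and the other GM libraries held 5 or 6.

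**Figure D1:**
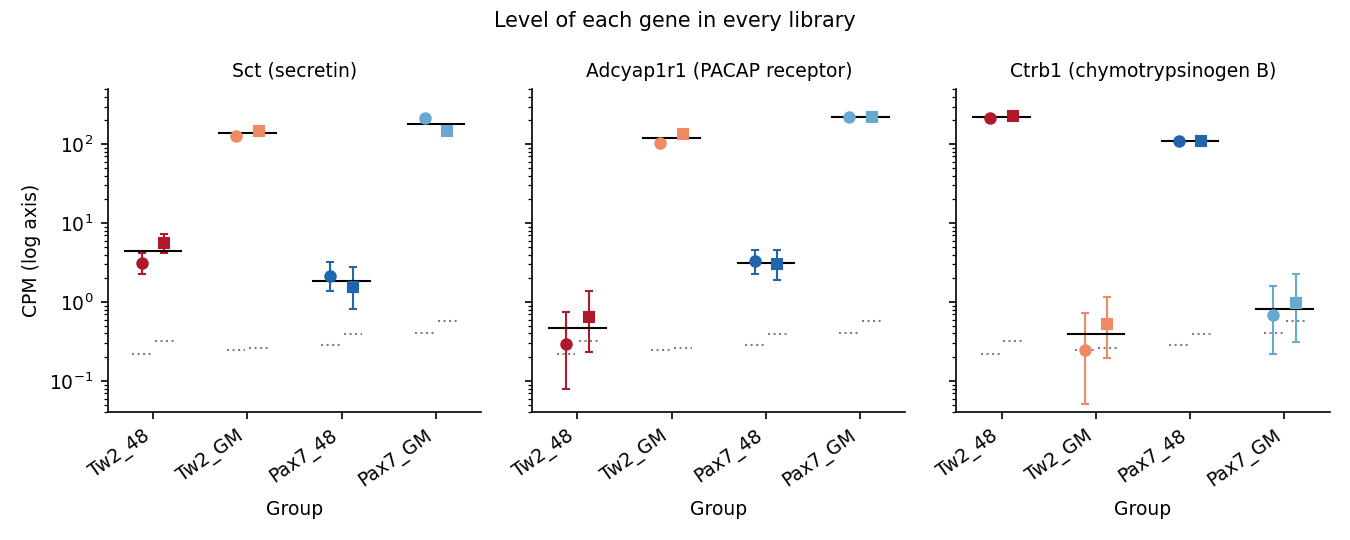
Level of each gene in every library (CPM on a log axis), with circles for the deeper and squares for the shallower library of a group, bars for the exact Poisson 95% interval of the reads, black lines for the group means and dotted lines for the limit of a count of 0 in each library. Sct and Adcyap1r1 sit at 104 CPM or more in the GM libraries and at 5.64 CPM or less in the 48 libraries, and Ctrb1 is the reverse, at 109 CPM or more at 48 and 0.965 CPM or less in GM.

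The order of the 4 groups by mean CPM differed from gene to gene. Sct averaged 4.39 ± 1.77 CPM in Tw2_48, 138 ± 15.0 in Tw2_GM, 1.87 ± 0.417 in Pax7_48 and 181 ± 46.2 in Pax7_GM (SD, n = 2 each), and its neighbours Pax7_GM and Tw2_GM did not differ beyond their spread. Adcyap1r1 averaged 0.465 ± 0.246 CPM in Tw2_48, 120 ± 22.4 in Tw2_GM, 3.15 ± 0.196 in Pax7_48 and 223 ± 0.230 in Pax7_GM, with each step of that order beyond the spread. Ctrb1 averaged 221 ± 9.84 CPM in Tw2_48, 0.389 ± 0.201 in Tw2_GM, 110.0 ± 1.83 in Pax7_48 and 0.821 ± 0.203 in Pax7_GM, so that Tw2_48 and Pax7_48 led, a step beyond the spread, and the GM groups could not be ordered from so few reads.

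To set the genes beside each other, the mean level was divided by the length of the longest transcript. Per kb, Ctrb1 in Tw2_48 stood at 251 CPM per kb and in Pax7_48 at 125 CPM per kb. Sct in Tw2_GM stood at 224 CPM per kb and in Pax7_GM at 293 CPM per kb, a level of the same order. The long Adcyap1r1 transcript was lower on this scale, at 19.6 CPM per kb in Tw2_GM and 36.6 CPM per kb in Pax7_GM. These are bulk libraries, in which fewer cells with a transcript and less transcript per cell cannot be told apart.

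The size of the culture change is what the genes were chosen for, so it is given as a description without a test. From the summed reads scaled by library size, Sct was 33.2-fold lower in Tw2_48 than in Tw2_GM (95% exact interval of the counting error, 27.1 to 41.1) and 97.3-fold lower in Pax7_48 than in Pax7_GM (69.8 to 140). Adcyap1r1 was 276-fold lower at 48 in Tw2 cells (150 to 576) and 70.4-fold lower in Pax7 cells (54.3 to 93.0). Ctrb1 was 572-fold higher at 48 in Tw2 cells (301 to 1252) and 138-fold higher in Pax7 cells (74.9 to 288). The wide upper bounds of the Ctrb1 folds and of the Adcyap1r1 fold in Tw2 cells go with the 9 or 10 reads in the lower group.

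On the log2(CPM + 1) scale, where a pseudocount of 1 shrinks the change of a gene near 1 CPM, the change of Sct was -4.73 ± 0.26 (SE) in Tw2 cells and -5.97 ± 0.26 in Pax7 cells. That of Adcyap1r1 was -6.36 ± 0.17 in Tw2 cells and -5.76 ± 0.17 in Pax7 cells, and that of Ctrb1 was 7.33 ± 0.15 in Tw2 cells and 5.93 ± 0.15 in Pax7 cells. The median change of all 5452 genes that could be split was -0.49 in Tw2 cells and 0.01 in Pax7 cells. The table leans to large changes: 84.1% of its genes were called between the cultures in Tw2 cells (adjusted p under 0.05, limma with Benjamini-Hochberg adjustment) and 79.2% in Pax7 cells, and the libraries of the cultures did not overlap for 95% of genes in Tw2 cells and 85% in Pax7 cells. These shares stand beside the choice of the members and nothing is read from them.

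Among the 5452 genes ranked by log2 change in Pax7 cells, Sct was rank 2 from the lowest, Adcyap1r1 rank 4 from the lowest and Ctrb1 rank 2 from the highest. Between Sct and Adcyap1r1 stood Acsbg1 (an acyl-CoA synthetase) at -5.85, and Adcyap1r1 was followed by Selp (P-selectin) at -5.59. Ctrb1 stood between Cdkn1c (the cell cycle inhibitor p57) at 6.33 and Mfap4 (a microfibril-associated glycoprotein) at 5.25. In Tw2 cells the ranks were 112 from the lowest for Sct, 8 from the lowest for Adcyap1r1 and 10 from the highest for Ctrb1. There the neighbours were Gtse1 (-4.75) and Apln (-4.71) for Sct, Id3 (-6.41) and Ccnd1 (-6.33) for Adcyap1r1, and Actn2 (7.33) and Scd1 (7.32) for Ctrb1. Sct therefore held an extreme rank in Pax7 cells and a less extreme one in Tw2 cells. Changes beyond 4.5 in the same direction in both lineages, a bound set after the values were seen, were found for 54 genes, of which 35 were lower and 19 higher at 48.

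**Figure D2:**
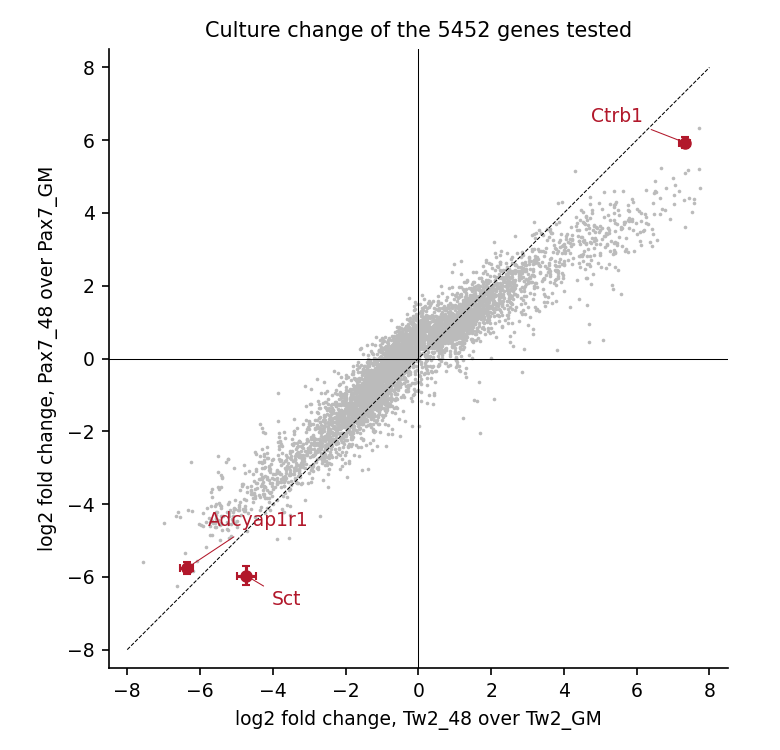
Culture change of the 5452 genes on the log2(CPM + 1) scale, Tw2_48 over Tw2_GM on the horizontal axis and Pax7_48 over Pax7_GM on the vertical axis, with the 3 genes in red and bars of 1 SE. Ctrb1 lies at 7.33 and 5.93, Adcyap1r1 at -6.36 and -5.76, and Sct at -4.73 and -5.97, which puts Sct below the dashed line of equal change.

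The culture changes of the 2 lineages were also set against each other, again as a description. The Tw2 change minus the Pax7 change was 1.24 ± 0.37 (SE, log2 scale) for Sct, whose 48 level was less far below its GM level in Tw2 cells. It was 1.39 ± 0.21 for Ctrb1, whose 48 level was further above its GM level in Tw2 cells, and -0.61 ± 0.25 for Adcyap1r1. The median difference of all genes was -0.22, and 18.7% of genes were called (9.72% with a positive and 9.01% with a negative difference). The differences of the 3 genes moved with the scale. Over the alternatives they ranged over the alternatives from 0.38 (quantile normalization) to 1.96 for Ctrb1 and from 0.79 to 1.99 for Sct. For Adcyap1r1 its sign turned: it was 0.31 with a pseudocount of 5 CPM and 0.25 after quantile normalization.

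The comparison of Tw2 with Pax7 cells was not used to choose the genes and was tested, with the limit that the table lists genes for a difference of at least 2-fold from Tw2_GM. Most genes of the table differed between the lineages. In GM 74.7% of genes were called (48.7% higher and 26% lower in Tw2 cells), at 48 65.4% (43.3% higher and 22.1% lower), and over both cultures 78.9% (49.8% higher and 29.1% lower). Adcyap1r1 was lower in Tw2 cells in both cultures. Its log2 difference was -0.91 ± 0.17 (SE) in GM (limma adjusted p = 0.00172) and -1.51 ± 0.17 at 48 (adjusted p = 0.000490), and -1.21 ± 0.12 over both cultures (adjusted p = 5.92e-05). By summed reads it was 1.87-fold lower in GM (95% exact interval of the counting error, 1.78 to 1.98) and 7.34-fold lower at 48 (3.72 to 16.1), where 10 reads in Tw2_48 stood against 58 in Pax7_48. The direction was the same in all libraries, with no overlap between the lineages in either culture, and it held with a call under every alternative that was run.

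Ctrb1 at 48 was higher in Tw2 cells, by 1.00 ± 0.15 on the log2 scale (limma adjusted p = 0.00140), or 2.00-fold by summed reads (1.90 to 2.11). With size factors in place of library totals the difference was 0.34 (adjusted p = 0.0676). In GM the log2 difference was -0.39 ± 0.15 (adjusted p = 0.0424), from 9 reads in Tw2_GM and 10 in Pax7_GM. The read ratio of 0.482 had a 95% counting interval of 0.173 to 1.32, so a difference between lineages in GM was not detectable at this depth, and the call was lost or turned under 11 of 16 alternatives. Over both cultures the difference was 0.30 ± 0.11 (adjusted p = 0.0295), the call being lost under 7 of the 15 alternatives run.

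Sct at 48 was higher in Tw2 cells, by 0.88 ± 0.26 on the log2 scale (limma adjusted p = 0.0184), with 96 reads in Tw2_48 against 35 in Pax7_48 and a ratio of 2.17 (1.46 to 3.29). That call was lost without the shallower Tw2_48 library or without the shallower Pax7_48 library (0.54 to 1.22 over all libraries left out in turn) and with size factors (0.41, adjusted p = 0.211) or a pseudocount of 5 CPM (0.44, adjusted p = 0.0719). In GM its difference of -0.37 ± 0.26 did not pass the test (adjusted p = 0.234), and neither did that over both cultures (0.26 ± 0.18, adjusted p = 0.232). Without the shallower Pax7_GM library the GM difference was -0.63 and passed (adjusted p = 0.0279), and without the deeper one it was -0.10.

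The median log2 difference of all genes was 0.34 in GM, 0.27 at 48 and 0.27 over both. Across genes the lineage difference ran against GC content, with a Spearman correlation of -0.69 in GM and -0.61 at 48. In the fit without a GC and length trend, the GM difference was -0.52 for Adcyap1r1, 0.99 for Ctrb1 and 1.09 for Sct, so that only Adcyap1r1 kept its sign there.

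The other ligands and receptors of the family were looked up next. Of 19 class B receptor ligands (secretin, PACAP, VIP, glucagon and others), none but Sct was among the genes analysed here. Of 19 class B receptors and accessory proteins, none but Adcyap1r1 was. The receptor of secretin (Sctr) and the ligand PACAP (Adcyap1) were thus not analysed here.

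The steps below the receptor were covered better. Of 37 genes for G proteins, adenylyl cyclases, phospholipase C beta and their regulators, 20 were measured, of which 5 rose and 14 fell at 48 in Tw2 cells (35.3% of all genes were called higher and 48.9% lower), with a median of -1.27 against -0.49 over all genes. In Pax7 cells 5 rose and 13 fell (38.8% and 40.5% of all genes), with a median of -1.04 against 0.01 over all genes. With size factors 5 rose and 13 fell in Tw2 cells (median -0.81), and 5 rose and 12 fell in Pax7 cells (median -0.79). Rgs4 and Rgs5, which speed the turning off of G proteins, both fell. Rgs4 changed by -4.99 in Tw2 cells and by -4.47 in Pax7 cells (log2 scale, with limma adjusted p under 0.05 for all genes said to rise or fall). Rgs5 lay between 0.213 and 0.510 CPM in Tw2_48 and between 56.3 and 62.1 CPM in Tw2_GM, and had no reads in Pax7_48 and 11.4 and 18.9 CPM in Pax7_GM. Gnb4, a G protein beta subunit, also fell: it was at 2.34 to 3.06 CPM in Tw2_48 and 113 to 133 CPM in Tw2_GM, and at 6.02 to 6.58 CPM in Pax7_48 and 121 to 128 CPM in Pax7_GM. Adcy8, a calcium-stimulated adenylyl cyclase, rose: it was at 79.2 to 80.8 CPM in Tw2_48 and 1.89 to 2.30 CPM in Tw2_GM, and at 50.4 to 52.3 CPM in Pax7_48 and 1.35 to 1.49 CPM in Pax7_GM. Its log2 change was 4.71 ± 0.13 in Tw2 cells and 4.44 ± 0.13 in Pax7 cells.

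Of 45 genes for cyclic AMP effectors and phosphodiesterases, 22 were measured. At 48, 9 rose and 9 fell in Tw2 cells (median -0.44, near the -0.49 of all genes, or 0.016 with size factors), and 10 rose and 7 fell in Pax7 cells (median 0.42, or -0.11 without the deeper Pax7_GM library, against 0.01 for all genes). Over all genes 35.3% rose and 48.9% fell in Tw2 cells, and 38.8% rose and 40.5% fell in Pax7 cells. Pde2a, a phosphodiesterase that cGMP stimulates, rose by 6.09 in Tw2 cells and by 3.49 in Pax7 cells, and Popdc2, a cyclic AMP-binding membrane protein of striated muscle, rose by 4.53 and by 4.02. Akap12, a scaffold that anchors protein kinase A, fell by 5.21 in Tw2 cells and fell by 3.95 in Pax7 cells. Pde4b, a phosphodiesterase specific for cyclic AMP, fell by 4.08 in Tw2 cells and fell by 3.03 in Pax7 cells. Members of this list thus moved in both directions.

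Of 34 genes of the CREB family and genes that cyclic AMP is known to induce, 15 were measured. In Tw2 cells 6 rose and 9 fell at 48 (median -0.97, or -0.52 with size factors; 35.3% of all genes rose and 48.9% fell), and in Pax7 cells 6 rose and 6 fell (38.8% and 40.5% of all genes; median 0.02, and between -0.35 and 0.39 without one or the other Pax7_GM library). Nr4a2, an orphan nuclear receptor induced by cyclic AMP in many cells, fell: it was at 1.06 to 1.09 CPM in Tw2_48 and 90.3 to 91.2 CPM in Tw2_GM, and at 1.18 to 2.35 CPM in Pax7_48 and 56.0 to 72.7 CPM in Pax7_GM. Areg, the EGF-receptor ligand amphiregulin, fell by 4.78 in Tw2 cells and fell by 3.85 in Pax7 cells. Creb3l1, a membrane-bound relative of CREB, fell by 3.06 in Tw2 cells and fell by 2.20 in Pax7 cells, and Cited2, a transcriptional co-regulator, fell by 2.70 and fell by 2.27. Nr4a2 and Areg were high in the cultures where Adcyap1r1 and Sct were high, and the 6 genes of the list that rose in each lineage were lower there. The genes named here all fell because they had the largest changes, so they do not stand for the list. With shared libraries, this is a description and not a test.

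**Figure D3:**
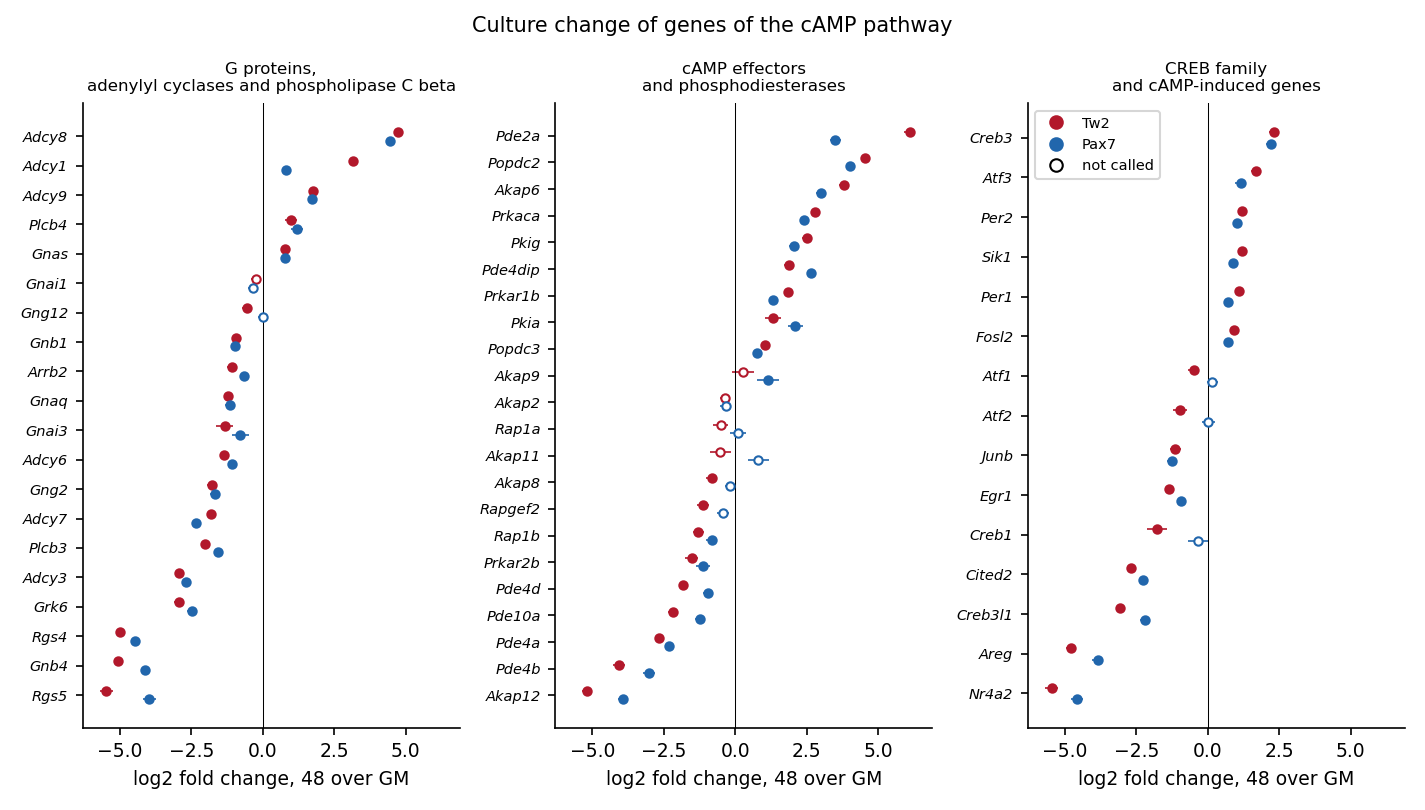
Culture change (log2 scale, 48 over GM) of the measured genes of 3 lists downstream of class B receptors, red for Tw2 cells and blue for Pax7 cells, with bars of 1 SE and open circles where limma's adjusted p was not under 0.05. The changes run in both directions in each list, with 14 of 20 genes of the G protein list lower at 48 in Tw2 cells and 13 of 20 in Pax7 cells.

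Genes of other secretory cells were sparse. Of 56 genes of neuroendocrine granules and enteroendocrine cells, 8 were measured, and in each lineage 2 rose and 4 fell at 48 (median -0.59 in Tw2 cells and -0.90 in Pax7 cells). Over all genes 35.3% and 48.9% did so in Tw2 cells and 38.8% and 40.5% in Pax7 cells, and with size factors the counts were 3 and 4 in each lineage and the Tw2 median -0.14. Ptprn, a dense-core vesicle protein, fell by 4.24 in Tw2 cells and fell by 2.69 in Pax7 cells, and Cpe, the carboxypeptidase that trims peptide hormones, fell by 2.49 and fell by 1.87. Ddc, the decarboxylase of dopamine and serotonin synthesis, rose by 4.12 and by 2.97, and Rab3a, a GTPase of vesicle release, by 2.29 and by 2.22. All 8 genes of the defining neuroendocrine marker list (among them Chga, Chgb, Syp and Insm1) are outside the genes analysed here, so no level can be given for them.

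Of 53 genes for pancreatic and digestive enzymes, 4 were measured besides Ctrb1, and none is a pancreatic zymogen. Plau (urokinase) fell by 3.47 in Tw2 cells and fell by 2.22 in Pax7 cells, and Htra1, a secreted serine protease, fell by 1.27 and fell by 1.49. Prss23, another serine protease, fell by 0.77 in Tw2 cells and fell by 1.30 in Pax7 cells, the Tw2 call being lost with size factors. Htra3 fell by 1.00 in Tw2 cells and changed by -0.02 in Pax7 cells, which did not pass the test (limma adjusted p = 0.914). Ctrb1 was the one gene of the 5 that was higher at 48. It was also the only one of 10 defining acinar markers among the genes analysed here, the list with Prss1, Cela1, Cpa1 and Ptf1a.

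Markers of other cells that the sort could hold were looked up too. No endothelial marker of 7 was among the genes analysed. Of 7 immune markers only Itgam was, at 22.8 and 18.1 CPM in Tw2_48 and 0 in both Tw2_GM libraries, where a count of 0 allows up to 0.246 and 0.266 CPM, and at 15.9 and 11.9 CPM in Pax7_48 and 0.542 and 0.579 CPM in Pax7_GM. The summed level of 5 of 7 pericyte and smooth muscle markers, most of it Acta2, was 8352 to 8756 CPM in Tw2_48, 688 to 730 CPM in Tw2_GM, 5288 to 5593 CPM in Pax7_48 and 789 to 890 CPM in Pax7_GM. Its members did not move together. Acta2 and Abcc9 rose at 48 in each lineage, and Rgs5 and Cspg4 fell in each. Notch3 fell in Pax7 cells and was not called in Tw2 cells. The summed level of 2 of 8 fibro-adipogenic markers, most of it Col3a1, was 196 to 217 CPM in Tw2_48, 942 to 991 CPM in Tw2_GM, 135 CPM in both Pax7_48 libraries and 475 to 490 CPM in Pax7_GM. The other, Col1a1, was not called between the cultures, and over both cultures it was lower in Tw2 cells (log2 difference -1.31, limma adjusted p = 0.0444). The summed level of 2 of 9 Schwann cell and neuron markers (Stmn2 and Tubb3) was 55.3 to 56.7 CPM in Tw2_48, 102 to 103 CPM in Tw2_GM, 18.5 to 23.2 CPM in Pax7_48 and 19.5 to 21.7 CPM in Pax7_GM. Stmn2 fell at 48 by 1.87 in Tw2 cells and by 0.82 in Pax7 cells, and Tubb3 was called between the cultures in neither lineage. The summed level of 6 of 9 satellite cell and myoblast markers was 5470 to 5531 CPM in Tw2_48, 2347 to 2385 CPM in Tw2_GM, 7878 to 8444 CPM in Pax7_48 and 2779 to 3318 CPM in Pax7_GM. This sum hides opposite changes: in each lineage 3 of the 6 rose at 48, Des among them, and 3 fell (Vcam1, Pax7 and Sdc4). The part of all these marker lists in the levels of Sct, Adcyap1r1 and Ctrb1 was not tested.

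The cultures also differed in the cell cycle and in muscle differentiation. Over all genes 35.3% rose and 48.9% fell at 48 in Tw2 cells (median -0.49), and 38.8% rose and 40.5% fell in Pax7 cells (median 0.01). Of 34 cell cycle genes 31 were measured, and 2 rose and 29 fell at 48 in each lineage, with a median of -5.09 in Tw2 cells and -4.06 in Pax7 cells. Top2a and Mki67, proteins of dividing cells, changed by -6.66 and -6.61 in Tw2 cells and by -4.33 and -4.22 in Pax7 cells. Of 37 myogenic differentiation genes 29 were measured, and all 29 rose in each lineage, with a median of 5.24 in Tw2 cells and 3.27 in Pax7 cells. Tnnc2 (fast troponin C) rose by 7.74 and by 4.69, and Myh8 (perinatal myosin heavy chain) by 7.57 and by 4.37. Sct and Adcyap1r1 were thus low where these muscle genes were high, and Ctrb1 was high there, in the same 4 libraries.

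The genes whose levels over the 8 libraries were most like each member, by Pearson correlation of log2(CPM + 1), were then listed. With only 4 groups behind the 8 libraries, many genes reach a high value, and the correlations are descriptions. Nearest to Sct were Dnph1 (a nucleotide hydrolase) at 0.998, Fam83d (a mitotic spindle protein) at 0.997, Slc39a14 (a zinc transporter) at 0.996, Nudt5 (an ADP-ribose hydrolase) at 0.995 and Nadk (NAD kinase) at 0.994. Nearest to Adcyap1r1 were Isy1 (a splicing factor) and Col18a1 (collagen XVIII) at 0.999, Tcf19 at 0.998, and Mcm7 (a subunit of the replicative helicase) and Gtse1 (expressed in G2 and S phase) at 0.997. Nearest to Ctrb1 were Mcu (the pore of the mitochondrial calcium uniporter), Tgfb3 (a TGF-beta ligand), Mtss1l and Ccdc88c at 0.999, and Ndrg4 at 0.998. Among the members, Sct and Adcyap1r1 had a correlation of 0.955, Sct and Ctrb1 of -0.968, and Adcyap1r1 and Ctrb1 of -0.985.

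**Figure D4:**
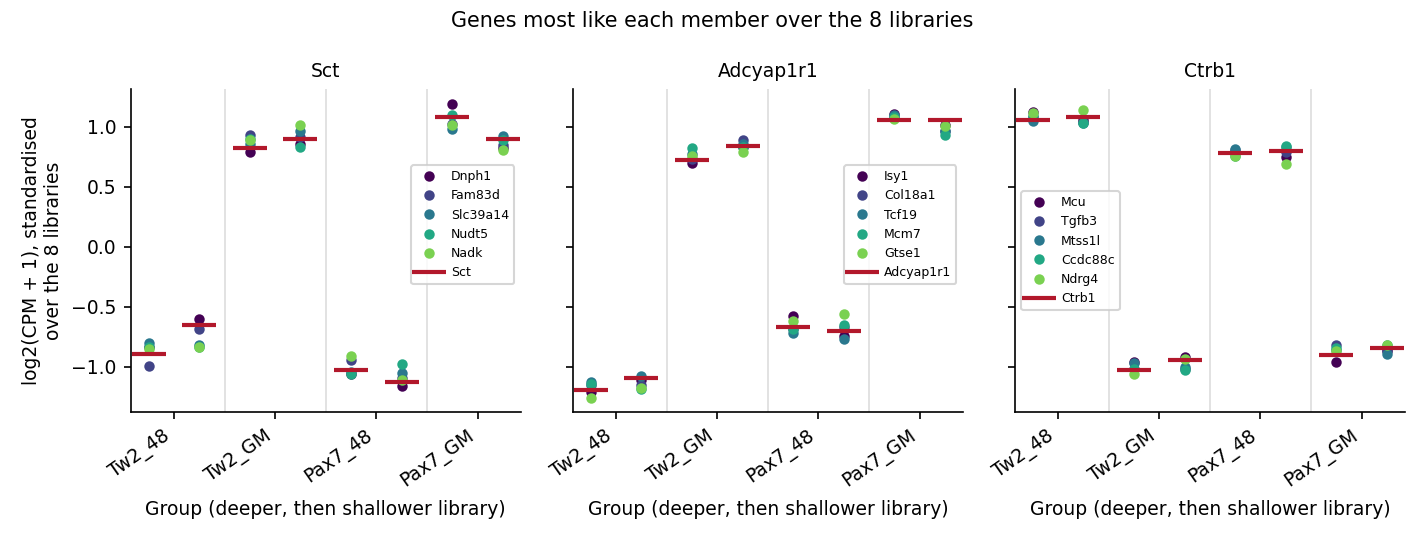
Level of each member (red line) and of the 5 genes most like it (points) in the 8 libraries, as log2(CPM + 1) standardised over the libraries, each group with its deeper library on the left. Tw2_48 lies higher than Pax7_48 for Sct and for Ctrb1 and lower than it for Adcyap1r1, and the 5 genes lie close to their member in each group.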

How the data were processed

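RNA was sequenced from 8 libraries, 2 in each of 4 groups taken from the sample titles and genotypes. The deposited table, made by the authors, gives for 5457 genes the mean CPM per group. The log2 fold changes the authors deposited are relative to Tw2_GM and equal log2 of (mean + 1) over (Tw2_GM mean + 1) to within 1.4e-11. Every listed gene had a deposited change of at least 2-fold, and no gene split into libraries had fewer than 4 libraries reaching 10 CPM, so the table is selected, and genes outside it were not analysed here. The members reach that level only in the culture where they are high. GRCm38 (mm10), DESeq2 1.6.3 and TopHat2 2.0.0 are named, with no role, in the submitters' processing notes. The counting tool and annotation are not given in the sources used here.

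Each mean CPM was split into the whole reads of its 2 libraries. This gave 1 solution for 5452 genes, and the other 5 (Acta1, Actc1, H19, Myh3 and Mylpf) were not used. On simulated means, 5453 to 5457 of 5457 genes were solved rightly. The means carry no replicate numbers. The reads came only from the split, so no count model was fitted. limma 3.58.1 (R 4.3.3) was run on log2(CPM + 1) over all 8 libraries, with 1 mean per group, a moderated variance with no trend (4 residual and 4.02 prior degrees of freedom) and Benjamini-Hochberg adjustment over the 5452 genes, and was tested on simulated data. Read ratios have exact conditional binomial intervals, which cover counting error only.

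Named genes are the 3 members, up to 4 other genes with the largest called culture change in each list, the 5 genes most like each member, and their neighbours by rank, of which 1 is not reported here. Members and lists were chosen with earlier results of these data known. Alternatives were other pseudocounts, size factors, quantile normalization, a GC and length trend, eBayes with trend, only the groups compared, and each library left out. List counts without each Pax7_GM library and under other scalings were added after the data had been seen. Promoter windows are RefSeq's (GRCm38.p6), and all 3 members matched by symbol.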

Additional observations from a re-analysis of the deposited data

Results flagged for a closer look

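Ctrb1 was flagged because both Tw2 libraries lay below both Pax7 libraries in GM and above them at 48, a difference of changes of 1.39 on the log2 scale, or 0.38 after quantile normalization, where the GM difference turned to 0.32. With Ctrb1 chosen on these changes, the difference was not tested, and the GM levels rest on 9 reads in Tw2_GM and 10 in Pax7_GM. The lineages did not overlap for 87.8% of all genes in GM and 89.6% at 48, and the share that crossed in this way was not counted. The 5 genes picked for likeness to Ctrb1 had the same signs, but they were chosen on this pattern, so this adds no support. Their log2 differences ran from -0.49 (Ccdc88c) to -0.03 (Mcu) in GM and from 0.39 (Mcu) to 0.80 (Ndrg4) at 48.

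Of the 50 other named genes, 29 had a culture change that differed between the lineages by limma's test of that difference (adjusted p from 0.000180 to 0.0427, 2 libraries a group). These genes were named for large culture changes or for their likeness to a member, and the difference is built from those same values. The adjusted p-values and the count are therefore a description, and the count is not comparable with the 18.7% of all genes called. Genes picked for likeness to a member were chosen on the pattern that gives the difference its sign. The difference, Tw2 change minus Pax7 change on the log2 scale, was positive for 13. It was 3.49 for Myl4, 3.20 for Myh8, 3.05 for Tnnc2 and 1.37 for Cdkn1c among the muscle genes. It was 2.61 for Pde2a and 1.14 for Ddc, which also rose at 48, and 1.18 for Ccdc88c, 1.10 for Ndrg4, 0.85 for Tgfb3 and 0.70 for Mtss1l among the genes picked for their likeness to Ctrb1. It was 3.71 for Actn2, 2.21 for Scd1 and 1.42 for Mfap4, whose culture change ranked next to that of Ctrb1 in 1 of the lineages.

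The difference was negative for 16. Among the cell cycle genes it was -2.39 for Mki67, -2.33 for Top2a, -2.15 for Ccnd1 and -1.39 for Ccna2, and it was -0.87 for Gtse1, a gene like Adcyap1r1, and -1.99 for Selp, whose change ranked next to that of Adcyap1r1 in Pax7 cells. In the signalling lists it was -1.50 for Rgs5, -1.26 for Akap12, -1.05 for Pde4b, -0.96 for Gnb4, -0.93 for Areg and -0.86 for Creb3l1. In the secretory and protease lists it was -1.55 for Ptprn, -0.63 for Cpe, -1.25 for Plau and -0.99 for Htra3. All 29 kept their sign with size factors, after quantile normalization and without the GC and length trend, and 15 of them were called under all 3: Actn2, Ccna2, Ccnd1, Cdkn1c, Myh8, Myl4, Ndrg4, Pde2a, Plau, Ptprn, Scd1, Selp, Tgfb3, Tnnc2 and Top2a. The call of the other 14 was lost under at least 1 of these scalings. Rgs5 had no reads in either Pax7_48 library, so the size of its difference depends on the pseudocount.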

How the results depend on the processing

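The lower level of Adcyap1r1 in Tw2 cells was called under every alternative run, at -1.77 to -0.52 in GM, -2.59 to -0.58 at 48 and -1.85 to -0.73 over both cultures. The culture changes of the 3 genes kept their direction throughout. The rest depended on the processing, and the cause was not tested. With size factors, Sct in GM was -1.23 and called, Sct over both cultures turned to -0.41, Sct at 48 was 0.41 and not called, Ctrb1 at 48 was 0.34 and not called, and Ctrb1 over both turned to -0.15. After quantile normalization, Sct in GM was -0.94 and called, and Ctrb1 in GM turned to 0.32. Without the GC and length trend, Sct in GM turned to 1.09, Ctrb1 in GM turned to 0.99, and Sct over both was 1.48 and called. With a pseudocount of 5 CPM, Ctrb1 in GM was -0.11 and Sct at 48 was 0.44, and with 0.1 CPM Ctrb1 over both was 0.022, all not called. The Ctrb1 difference in GM, -0.39, was not called with an eBayes trend or with only the GM groups in the fit. The difference of the Adcyap1r1 culture changes turned to 0.31 with a pseudocount of 5 CPM and to 0.25 after quantile normalization.

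With each library left out in turn, a lone library being assumed to vary like the others, Sct ranged over -0.63 to -0.10 in GM, 0.54 to 1.22 at 48 and 0.085 to 0.43 over both cultures, where it was called only without the deeper Pax7_GM library. Ctrb1 ranged over -0.54 to -0.25 in GM, called in 2 of 8 such fits (without the deeper Pax7_GM or the shallower Tw2_GM library), and over 0.23 to 0.38 over both cultures, called in 3 of 8. Over all genes, 3568 were called between the lineages at 48, and 2152 (without the deeper Tw2_48 library) to 4218 with 1 library left out. For the difference of culture changes 1021 genes were called, 1760 without the GC and length trend, and 449 (without the shallower Tw2_48 library) to 3153 (without the shallower Pax7_GM library) with 1 library left out.

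Scaling moved the balance of the calls. In GM 2655 genes were higher and 1417 lower in Tw2 cells, against 1393 and 2940 with size factors, 1973 and 2208 after quantile normalization, and 3425 and 807 without the GC and length trend. The median log2 difference of all genes there was 0.34 as reported, and -0.50, -0.14 and 0.53 under these. At 48 the split was 2363 and 1205, against 945 and 2631, 1606 and 1715, and 2557 and 716. No paired analysis was possible because the deposited values are group means, which carry no replicate numbers. Depth limits Ctrb1 in GM and Adcyap1r1 in Tw2_48, where 9 or 10 reads carry the value.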
